A study of Mus musculus with 2 samples.

Results

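The 39 genes described here encode the machinery of NF-kappaB signalling, its feedback regulators and a set of its target genes. They were chosen by symbol, and all 39 were found among the 15576 genes of a table from mouse bone marrow-derived macrophages, which are macrophages grown in culture from marrow progenitors. Cells exposed for 24 h to 100 µM deoxycholic acid gave 1 library (DCA), and cells left without the bile acid gave the other 1 (NC). Deoxycholic acid is a secondary bile acid made by gut bacteria. The labels call the NC cells and the treated cells by the same cell type and tissue. The strain, sex and age of the wild-type mice, their number, and the vehicle were not given in the sources used here. The comparison asks how these transcripts differed after exposure to the bile acid. With 1 library per group no difference could be set against the spread between cultures, and no test was made.

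NF-kappaB is a family of dimeric transcription factors that IkappaB proteins hold inactive in the cytoplasm of resting cells. Microbial and cytokine receptors act through adaptors, IRAK kinases and TRAF ubiquitin ligases on the IKK complex, which marks IkappaB for destruction and frees the dimers to enter the nucleus. Among the genes then transcribed are several that encode brakes on the same pathway, and in macrophages the pathway is known as a main route from microbial sensing to inflammatory gene expression.

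The 39 genes lay close together in the libraries. The table holds FPKM, reads per kilobase of gene and per 1e6 reads, and whole reads could be rebuilt from it for all 39 genes. Of the 39, 37 had a mean FPKM of at least 1 and were counted, and Traf1 and Relb fell below that limit. Differences were taken in log2(FPKM + 1), DCA minus NC, a scale on which low genes show less than their full ratio. The median difference of the 37 was 0.011, against 0.0067 for all 9656 genes that passed the same limit. On this scale 3 of the 37 were at least 1.1-fold higher in DCA, namely Nfkbie, Bcl3 and Bcl2a1d, where 8.99% of all counted genes were. None was at least 1.1-fold lower, where 4.79% of all counted genes were, but 2 were with a pseudocount of 0.1 or with each library rescaled to the same sum. None was 1.5-fold apart, where 0.342% of all counted genes were higher and 0.155% lower by that much. The share of 1.1-fold higher members was near that of all genes. In sign, 25 of the 37 differences were above 0, where 53.5% of all counted genes were, and the count was 21 once differences were centred on the median gene.

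A finer view came from the rebuilt reads. Each ratio below is of reads in DCA over NC, scaled to the read totals, with an exact Clopper-Pearson 95% interval that covers counting error only and compares these libraries, not the conditions. Since PCR can copy a molecule, the intervals are narrower than the error of independent molecules would make them. The interval lay above 1 for 12 of the 37 genes (32.4%) and below 1 for 2 (5.41%). Among all counted genes with rebuilt reads, 25.6% lay above and 20.0% below. The 12 were the adaptors and kinases Irak3, Traf2, Traf3 and Traf6, the subunits Nfkb1 and Nfkb2, the IkappaB family genes Nfkbia, Nfkbie, Nfkbiz and Bcl3, and the targets Gadd45b and Bcl2a1d. The 2 were Tnfaip3 and Birc2. With each library rescaled to the same sum of FPKM, Myd88, Rel and Tnfaip2 also lay below 1, which made 5.

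**Figure D1:**
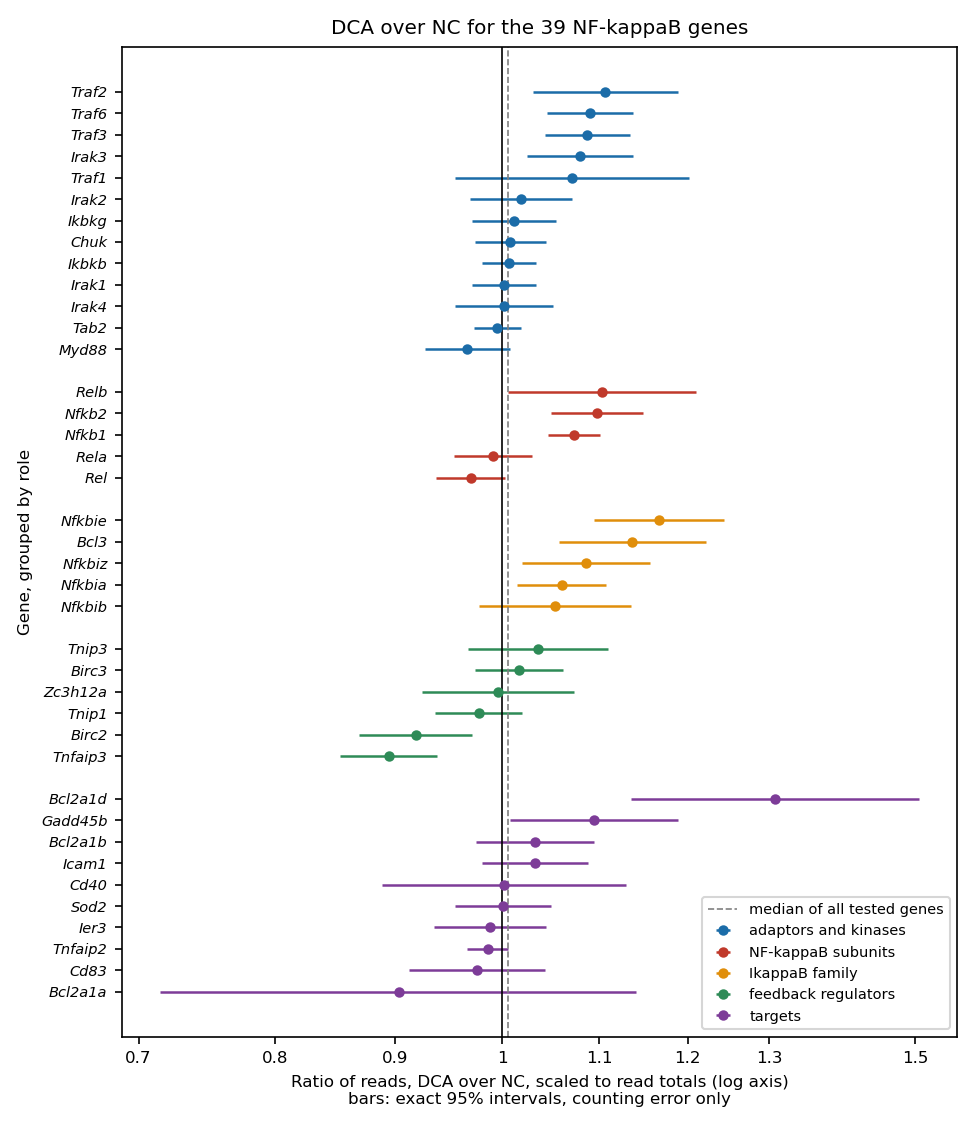
Ratio of reads, DCA over NC (x axis, log scale), for each of the 39 genes (y axis), grouped and coloured by role, with points for the ratio, bars for exact 95% counting intervals and a dashed line at the median of all tested genes. All 5 points of the IkappaB family lie to the right of 1, from 1.05 to 1.17, and Tnfaip3 and Birc2 lie furthest left among the genes whose bars miss 1.

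The depth behind these values was 56.6 M reads in DCA and 59.2 M in NC, with M for 1e6 reads. The 37 genes rested on 139 to 19385 reads in a library, and the intervals reached 2.03% to 23.6% of the ratio to either side, with a median of 4.80%. The values themselves show that the FPKM of the table divide by the lengths of every annotated transcript added together, a step the labels do not describe, which lowers genes with many transcripts. Levels of different genes are therefore compared below only per kilobase of merged exons, as recomputed from the reads. Macrophage markers were abundant, with Lyz2 at 9669 in NC and 9803 in DCA and Cd68 at 881 in NC and 882 in DCA on that scale. Markers of the other cells that a marrow culture can hold were present in both libraries, with higher summed levels in DCA. The summed FPKM of 14 neutrophil markers was 4249 in DCA and 3595 in NC, and that of 10 B-cell markers 204.4 and 165.5. That of 7 eosinophil markers was 109.9 and 75.4, and that of 10 dendritic-cell markers 47.1 and 39.8. The 5 counted eosinophil markers were all higher in DCA, at a median ratio of 1.36, with the interval above 1 for 4. Of the 6 counted dendritic-cell markers, 5 were higher in DCA, with the interval above 1 for 3. Ccr7 was furthest apart among them at a ratio of 1.68, while Cd209a stood at 0.941 (0.872 to 1.02), which includes equality. With a mean FPKM below 1, Zbtb46, Xcr1 and Clec9a had intervals that included 1, and Batf3 was lower in DCA at 0.503 (0.333 to 0.750). Every one of the 14 neutrophil and 10 B-cell markers was higher in DCA, at median ratios of 1.17 and 1.18, and the most abundant of them were S100a8 and S100a9, and Cd79a and Cd79b. Of the T-cell markers, Cd3d and Cd3g were at 0 reads in NC, where a count of 0 allows up to 3 reads. In DCA they had 14 and 17 reads. Cd2, Lck, Cd4 and Cd8a were higher in DCA, at ratios of 1.45, 1.57, 1.52 and 1.80, each with an interval above 1. Cd3e had 16 reads in NC and 7 in DCA, with an interval that included 1 (0.159 to 1.18). The abundant Il7r had a ratio of 0.978 (0.952 to 1.004). The summed FPKM of the 8 T-cell markers was 24.9 in DCA and 23.8 in NC, of which Il7r alone made 20.6 and 21.1. That of 7 mast-cell and basophil markers was 53.7 and 49.8. Of 12 macrophage markers, 9 were lower in DCA, at a median ratio over all 12 of 0.951. Neutrophils, B cells and dendritic cells also transcribe many NF-kappaB genes, and the part of these cells in the values below was not tested. In such bulk samples, fewer cells of a type and less RNA per cell cannot be told apart.

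Tnfaip2, a target that encodes a protein of membrane nanotube formation, had the highest level of the 39 genes per kilobase of merged exons, at 65.7 in NC and 64.8 in DCA. It was followed by the anti-apoptotic Bcl2a1b at 48.6 and 50.2, the inhibitor Nfkbia at 42.03 and 44.55, the kinase-binding Tab2 at 40.7 and 40.5, and the early response gene Ier3 at 39.7 and 39.2. The lowest levels were those of Traf1 at 1.14 and 1.22, Tnip3 at 2.59 and 2.68 and Cd40 at 2.80 and 2.81. The order of the 12 highest genes was the same in both libraries, and so was that of the 5 lowest. Of the subunits, Rela stood highest in NC at 29.9, ahead of Nfkb1 at 16.5, Rel at 15.9, Nfkb2 at 13.7 and Relb at 3.93. With 1 library per group there is no spread against which neighbours in this order could be set.

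**Figure D2:**
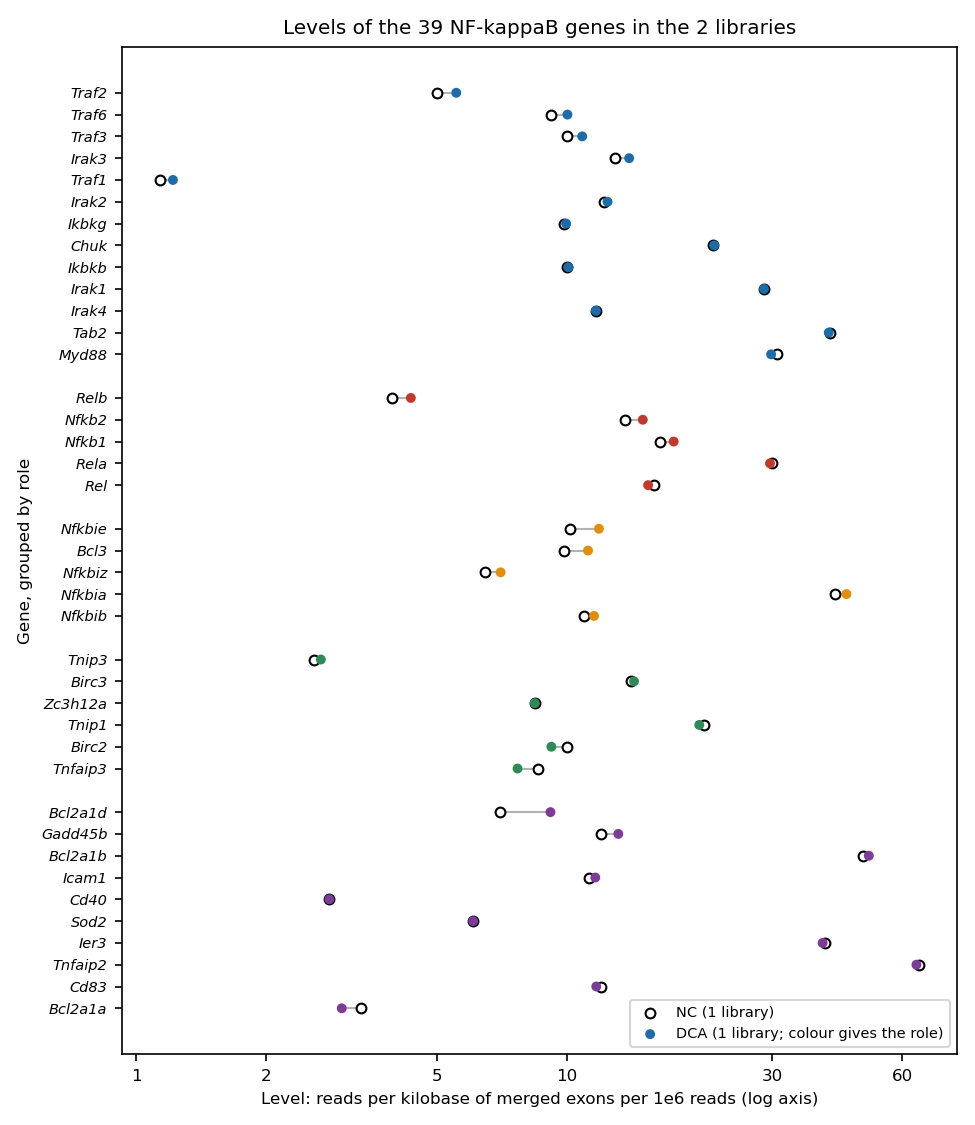
Level of each of the 39 genes (y axis, grouped by role) in reads per kilobase of merged exons per 1e6 reads (x axis, log scale), with open points for the NC library and filled points for the DCA library. Levels span 1.14 for Traf1 to 65.7 for Tnfaip2 in NC, while within a gene the points nearly coincide, with Bcl2a1d the furthest apart at 7.01 and 9.16.

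Several of these genes carry kappaB sequence at their own start sites. NF-kappaB binds the kappaB consensus, and that motif was searched on both strands from 250 bases before to 50 after each start in the RefSeq promoters of GRCm38.p6, with overlapping matches joined. Of the 39 genes, 33 had an entry, and 11 of these (33.3%) held at least 1 match, where 5.14% of all 27025 genes of the promoter table did. By promoter, 13 of 43 member promoters (30.2%) and 4.51% of all 32851 held a match. The 11 were Traf3, Nfkb2, Rel, Nfkbia, Nfkbie, Bcl3, Tnfaip3, Tnip1, Tnip3, Sod2 and Ier3. A match is a string in this window and not a shown binding site. The following windows are 30 bases long, 5′ to 3′ on the strand of the gene, with the match in capitals. They are shown for the IkappaB family, the subunits and the feedback genes because the feedback loops of the pathway run through these roles.
Nfkbia: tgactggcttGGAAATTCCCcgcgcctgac
Nfkbie: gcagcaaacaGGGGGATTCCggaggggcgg
Bcl3: tcggcggcagGGGAAGTCCCgctgcccggc
Nfkb2: gatcgtcacGGGAATTCCCCccctcggggg
Rel: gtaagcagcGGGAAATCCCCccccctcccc
Tnfaip3: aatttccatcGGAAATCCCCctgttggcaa
Tnip1: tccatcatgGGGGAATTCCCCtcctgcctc
Tnip3: gagacatcctGGGAAATCCCagttacatgg

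These windows lie at chr12:55492657-55492686 on the minus strand for Nfkbia, chr17:45555584-45555613 on the plus strand for Nfkbie, chr7:19822734-19822763 on the minus strand for Bcl3 and chr19:46304689-46304718 on the plus strand for Nfkb2. Those of Rel, Tnfaip3 and Tnip1 lie on the minus strand at chr11:23771041-23771070, chr10:19015403-19015432 and chr11:54962978-54963007, and that of Tnip3 on the plus strand at chr6:65590334-65590363. Tnfaip3, whose product A20 edits ubiquitin chains to switch the pathway off, held a further match that began 125 bases before its start, and the promoters of Nfkb2, at its several annotated starts, held 3 further matches. The matches of Nfkbia and Rel began 29 and 92 bases before the start and that of Bcl3 at base 3 after it. The matches printed for Nfkb2 and Rel are joined matches of 11 bases, and that of Tnip1 is one of 12.

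Genes with a match did not share a direction. Of the 11 with a match, the interval lay above 1 for 5 (Traf3, Nfkb2, Nfkbia, Nfkbie and Bcl3) and below 1 for 1 (Tnfaip3), at a median ratio of 1.04. Of the 21 counted members with an entry and no match, it lay above 1 for 5 and below 1 for 1, at a median ratio of 1.01. Across the table, 462 counted genes with a match had a median ratio of 1.00478 and 24.5% above 1, and 7328 without one had 1.00509 and 24.5%.

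Within the IkappaB family, all 5 genes had a ratio above 1, also after both rescalings. The interval lay above 1 for all but Nfkbib (80%, beside 25.6% of all counted genes). The median ratio of the 5 genes was 1.09, where that of all counted genes was 1.00584. Nfkbie, which encodes IkappaB epsilon, a cytoplasmic inhibitor itself induced by NF-kappaB (ENSMUSG00000023947, GRCm38 chromosome 17, 45555703 to 45563169, plus strand), had 4.63 FPKM under DCA and 3.97 under NC, from 2044 and 1834 reads. Its ratio was 1.17 (1.095 to 1.24), and 94.9% of all counted genes had a lower difference. Bcl3, an atypical nuclear member that binds the p50 and p52 subunits (ENSMUSG00000053175, chromosome 7, 19808462 to 19822770, minus strand), had 6.01 FPKM under DCA and 5.29 under NC, from 1567 and 1443 reads. Its ratio of 1.14 (1.06 to 1.22) was above the differences of 93.1% of counted genes.

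The other members of the family differed less. Nfkbia, the classical inhibitor IkappaB alpha and a rapid feedback gene of the pathway, had 31.5 FPKM under DCA and 29.7 under NC. From 4058 and 4006 reads its ratio was 1.06 (1.02 to 1.11). Nfkbiz, which encodes the nuclear co-regulator IkappaB zeta of secondary response genes, had 2.05 and 1.89 FPKM, a ratio of 1.09 (1.02 to 1.16). Nfkbib, IkappaB beta, had 6.47 and 6.14 FPKM and a ratio of 1.05 (0.978 to 1.135), which includes equality. Exons of Sirt2 and Ccer2 overlap 16.4% of the exon bases of Nfkbib, and the reads of Nfkbib and Sirt2 together had a ratio of 0.990 (0.960 to 1.02). Bcl3 overlaps a predicted gene over 6.51% of its exon bases. The neutrophil, B-cell and eosinophil markers stood at median ratios of 1.17, 1.18 and 1.36 in the same libraries, and their part in the values of the family was not tested.

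The 5 subunits fell on both sides of equality. The genes of the precursor subunits were higher in DCA, as was Relb. Nfkb1, which encodes the precursor of p50, had 7.88 FPKM under DCA and 7.34 under NC, from 12072 and 11767 reads, at a ratio of 1.07 (1.05 to 1.101). Nfkb2, the precursor of p52 in the non-canonical branch, had 3.16 and 2.88 FPKM, from 3890 and 3708 reads, at a ratio of 1.098 (1.05 to 1.15). Its exons overlap those of Psd and another gene over 18.1% of their bases, and Nfkb2 and Psd together had a ratio of 1.135 (1.09 to 1.18). Relb, the partner of p52 and itself an NF-kappaB target, was below the limit on low values with 0.834 and 0.756 FPKM, and had a ratio of 1.103 (1.01 to 1.21) from 954 and 905 reads.

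The subunits that carry transactivation domains in the canonical dimers were not higher. Rela, which encodes p65, had 10.7 FPKM in both libraries to that precision, from 5146 reads in DCA and 5432 in NC. Its ratio was 0.991 (0.954 to 1.03). Rel, the c-Rel subunit of lymphoid and myeloid cells, had 15.4 FPKM under DCA and 15.9 under NC, a ratio of 0.9699 (0.938 to 1.003). The intervals of Rela and Rel did not reach the lower ends of those of Nfkb1 and Nfkb2, 1.047 and 1.049.

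Of the 12 counted adaptors and kinases, 10 had a ratio above 1 on the deposited scale and 6 with each library rescaled to the same sum, where 53.5% of all counted genes were higher as deposited. The 4 whose interval lay above 1 (33.3%, beside 25.6% of all counted genes) were the TRAF ubiquitin ligases and Irak3. Traf6, the ligase that MyD88 and IRAK kinases engage, had 8.90 FPKM under DCA and 8.16 under NC, from 4471 and 4293 reads, at a ratio of 1.09 (1.04 to 1.14). Traf2, which serves the TNF receptors, had 3.03 and 2.74 FPKM, from 1597 and 1510 reads, at a ratio of 1.11 (1.03 to 1.19). Traf3, a brake on the non-canonical branch, had 3.42 and 3.15 FPKM, from 4511 and 4342 reads, at a ratio of 1.09 (1.04 to 1.134). No exon of these 3 genes overlaps another annotated gene.

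Irak3, the inhibitory IRAK-M of macrophages, had 5.004 FPKM under DCA and 4.636 under NC, a ratio of 1.08 (1.02 to 1.14), and 1.04 (1.00093 to 1.08) with the overlapping Tmbim4. Traf1, a TRAF without a ligase domain that is induced by NF-kappaB, had 607 and 593 reads and a ratio of 1.07 (0.955 to 1.202). The remaining 8 had ratios of 0.967 to 1.02, and every interval included 1. Among them, Myd88, the adaptor shared by most Toll-like receptors, had 16.0 FPKM under DCA and 16.5 under NC, a ratio of 0.967 (0.927 to 1.01). Exons of Acaa1a overlap 11.3% of the exon bases of Myd88, and Myd88 and Acaa1a together stood at 0.988 (0.961 to 1.02). The other IRAK genes, Irak1, Irak2 and Irak4, stood at 1.00192, 1.02 and 1.00186, and Tab2, which links ubiquitin chains to the kinase TAK1, at 0.995. Irak4 and the overlapping Twf1 together stood at 1.04 (1.01 to 1.07).

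The 3 genes of the IKK complex lay close to equality. The catalytic subunits Chuk (IKK alpha) and Ikbkb (IKK beta) had 8.76 and 5.37 FPKM in DCA and 8.69 and 5.33 in NC, at ratios of 1.01 (0.974 to 1.04) and 1.01 (0.980 to 1.03). The scaffold Ikbkg (NEMO) had 1.54 and 1.52 FPKM and a ratio of 1.01 (0.971 to 1.05). Exons of G6pdx overlap 5.15% of the exon bases of Ikbkg, and Ikbkg and G6pdx together stood at 0.989 (0.973 to 1.004). The intervals of the 3 IKK genes exclude ratios such as the 1.09 of Traf6, but small differences within them were not detectable at this depth.

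The 6 feedback regulators lay lower than the IkappaB family, with 4 below equality and a median ratio of 0.987. Tnfaip3 (ENSMUSG00000019850, chromosome 10, 19000910 to 19015657, minus strand) had 3.33 FPKM under DCA and 3.72 under NC, from 3139 and 3672 reads. Its ratio of 0.895 (0.853 to 0.939) was the lowest of the 37 genes, and only 6.04% of all counted genes had a lower difference. Birc2, which encodes the ubiquitin ligase cIAP1 of the TNF receptor complex, had 4.76 and 5.18 FPKM, from 2384 and 2716 reads, at a ratio of 0.919 (0.869 to 0.971). Neither gene has an exon that overlaps another gene. Birc3, the related cIAP2 gene next to Birc2 on chromosome 9 and an NF-kappaB target, had 8.55 and 8.41 FPKM and a ratio of 1.02 (0.974 to 1.06), whose interval does not meet that of Birc2.

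Tnip1 and Tnip3, which encode partners of A20 that bind ubiquitin, stood at 0.977 (0.936 to 1.02) and 1.04 (0.967 to 1.11). Zc3h12a, the nuclease Regnase-1 that degrades inflammatory transcripts, had 7.10 FPKM under DCA and 7.13 under NC, a ratio of 0.996 (0.925 to 1.07). The feedback genes Tnfaip3 and Nfkbia, both with a kappaB match close to the start as printed above, lay on opposite sides of equality with intervals that did not meet, 0.853 to 0.939 and 1.02 to 1.11.

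Of the 10 targets, 6 had a ratio above 1 on the deposited scale and 4 after either rescaling. The interval lay above 1 for Bcl2a1d and Gadd45b (20%, beside 25.6% of all counted genes). Gadd45b, a stress-induced gene that restrains JNK signalling, had 7.79 FPKM under DCA and 7.12 under NC, a ratio of 1.09 (1.01 to 1.19) from 1183 and 1131 reads. Its interval included 1 with each library rescaled to the same sum. The intervals of the other 8 targets included 1 on the deposited scale, and that of Tnfaip2 lay below 1 once the libraries were rescaled. Icam1, an adhesion molecule for leukocytes, had 10.7 and 10.4 FPKM and a ratio of 1.03 (0.980 to 1.09). Sod2, the mitochondrial superoxide dismutase, had 4.37 FPKM in each library and a ratio of 1.0008 (0.955 to 1.05). Ier3 and Tnfaip2 stood at 0.988 (0.935 to 1.04) and 0.986 (0.966 to 1.01). The activation markers Cd40, a receptor of T-cell help, and Cd83, a marker of mature dendritic cells and B cells, stood at 1.002 (0.889 to 1.1295) and 0.976 (0.913 to 1.04). The B-cell markers were all higher in DCA. Of the 6 counted dendritic-cell markers, the interval lay above 1 for 3 and below 1 for none, and the sum of all 10 was higher in DCA.

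Bcl2a1d was the member furthest apart. The Bcl2a1 genes encode A1, a short-lived survival protein of the BCL2 family that NF-kappaB induces, and the mouse carries several near-identical copies on chromosome 9. Bcl2a1d (ENSMUSG00000099974, 88723285 to 88731914, minus strand) had 9.16 FPKM under DCA and 7.01 under NC, from 447 and 358 reads, at a ratio of 1.31 (1.135 to 1.51). Its difference was above those of 99.0% of counted genes. Bcl2a1b had 50.2 and 48.6 FPKM, from 2321 and 2352 reads, at a ratio of 1.03 (0.975 to 1.09). Bcl2a1a had 3.0001 and 3.32 FPKM, from 139 and 161 reads, at a ratio of 0.904 (0.715 to 1.14).

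The division of reads among these copies is uncertain. Their coding sequences of 516 bases were 97.9% identical between Bcl2a1a and Bcl2a1b, 98.6% between Bcl2a1a and Bcl2a1d and 98.8% between Bcl2a1b and Bcl2a1d, and 79.5% of all 50-base windows of the Bcl2a1d transcript occurred unchanged in another of the 3 copies. The first 60 coding bases hold 6 of the 12 positions at which the copies differ and are printed from the GENCODE vM21 transcripts, 5′ to 3′ on the strand of each gene, with these positions in capitals.
Bcl2a1a: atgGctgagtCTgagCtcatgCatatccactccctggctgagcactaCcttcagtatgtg
Bcl2a1b: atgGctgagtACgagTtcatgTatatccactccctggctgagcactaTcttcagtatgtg
Bcl2a1d: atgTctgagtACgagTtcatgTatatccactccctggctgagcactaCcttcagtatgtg

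They lie at chr9:88957051-88957110 and chr9:89199360-89199419 on the plus strand for Bcl2a1a and Bcl2a1b and at chr9:88731660-88731719 on the minus strand for Bcl2a1d. What the authors' counting did with reads that match several copies was not given in the sources used here. Summed over the 3 copies, which does not depend on the division among them, DCA had 2907 reads and NC 2871, at a ratio of 1.06 (1.01 to 1.12). If the counting dropped reads that match several copies, the sum lacks them too. Bcl2a1d held 15.4% of the summed reads in DCA and 12.5% in NC, and Bcl2a1b 79.8% and 81.9%. Exons of Gm29094 overlap 49.1% of the exon bases of Bcl2a1b, and Bcl2a1b and Gm29094 together had a ratio of 1.04 (0.979 to 1.098). Neutrophils are known for high A1 expression, and the 14 neutrophil markers, all higher in DCA, had a median ratio of 1.17. Their part in the difference of Bcl2a1d was not tested.

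**Figure D3:**
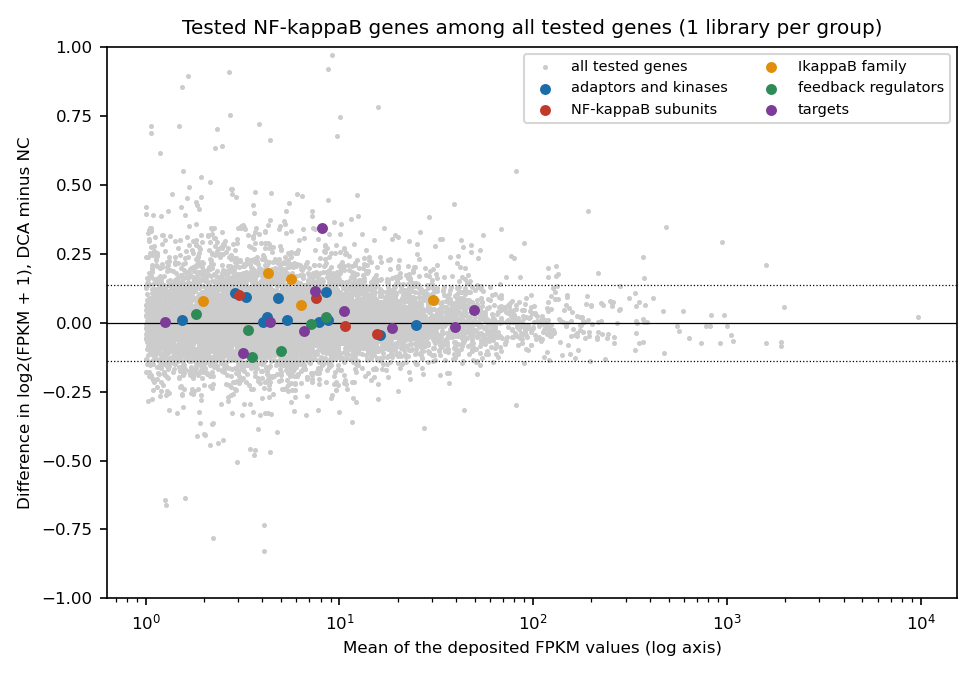
Difference in log2(FPKM + 1), DCA minus NC (y axis), against the mean of the deposited FPKM values (x axis, log scale) for all tested genes (grey) and the 37 counted NF-kappaB genes, coloured by role, with dotted lines at 1.1-fold; 24 tested genes more than 1 apart lie outside the plot. Of the coloured points, only Nfkbie, Bcl3 and Bcl2a1d lie above the upper dotted line and none below the lower one.

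The rest of the pathway was read from 4 further lists with 98 symbols, of which all but Nos2 were found and 87 genes were counted. Malt1 and Ripk2 stand in 2 lists each. None was 1.5-fold apart. At the 1.1-fold limit, 7 of the 87 were higher and 5 lower, beside 8.99% and 4.79% of all counted genes. The interval lay above 1 for 23 of the 82 with rebuilt reads (28.0%) and below 1 for 14 (17.1%), near the 25.6% and 20.0% of all counted genes. From each list the 2 highest and 2 lowest genes are named among those whose FPKM averaged 5 or more, and genes below that limit that lay further out are named after their values were seen. The median difference of the 87 counted genes was 0.019.

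Among 19 counted receptors and receptor-proximal genes, the median difference was 0.015. Ticam1, the TRIF adaptor of the endosomal and interferon-inducing Toll-like receptor branch, had 12.6 FPKM under DCA and 11.1 under NC, a ratio of 1.14 (1.07 to 1.21), and its bridging adaptor Ticam2 had 9.70 and 8.82 FPKM, a ratio of 1.099 (1.05 to 1.15). Ly96, the MD-2 partner of Tlr4, with a mean FPKM below 5, stood at 1.15 (0.998 to 1.32). Ticam1 and Ticam2 stood above Myd88, whose interval ended at 1.01, though exons of Ticam2 and of Myd88 each overlap another annotated gene. On the lower side, the lipopolysaccharide co-receptor Cd14 had 58.9 and 62.6 FPKM, a ratio of 0.94002 (0.913 to 0.968), and Tnfrsf11a, the receptor RANK, had 11.7 and 12.9 FPKM, from which no whole reads could be rebuilt. Ripk2, the kinase that NOD receptors engage, lay lowest of this list at a ratio of 0.870, with a mean FPKM below 5.

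The 22 counted kinases and ubiquitin factors had a median difference of -0.0075. Csnk2a1 and Map3k3, both protein kinases, stood at 0.949 (0.915 to 0.984) and 0.960 (0.931 to 0.990), and the ubiquitin factors Ube2n and Xiap at 1.03 (0.986 to 1.08) and 1.02 (0.993 to 1.05). Genes with a mean FPKM below 5 lay further out on both sides. Map3k14, the NIK kinase of the non-canonical branch, stood at 0.890 (0.833 to 0.951), and Nkrf, without rebuilt reads, had the lowest difference of the list at -0.24 in log2(FPKM + 1). The kinase gene Map3k8 and the ubiquitin ligase gene Rnf31 stood at 1.14 (1.05 to 1.22) and 1.07 (1.02 to 1.12), and Traf5, without rebuilt reads, had a difference of 0.12. The 17 counted further negative regulators had a median difference of 0.014. Their interval lay above 1 for 1 (5.88%, beside 25.6% of all counted genes), Tax1bp1, an A20 cofactor, at 1.04 (1.02 to 1.06). It lay below 1 for 2 (11.8%, beside 20.0%): the A20 partner Tnip2 at 0.897 (0.837 to 0.962) and the cytokine signalling suppressor Socs3 at 0.875 (0.785 to 0.975). Usp18, Zbtb7a and Rnf11 had intervals that included 1, at 1.06, 0.993 and 0.973.

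The 31 counted further targets had the highest median of these lists, 0.045, and their interval lay above 1 for 15 (51.7%) and below 1 for 6 (20.7%) of 29 with rebuilt reads, beside 25.6% and 20.0% of all counted genes. The immunoproteasome subunit Psmb9 had 6.06 FPKM under DCA and 5.10 under NC, a ratio of 1.19 (1.12 to 1.26), and the syntaxin Stx11 had 5.61 and 4.69 FPKM, a ratio of 1.19 (1.132 to 1.26). Psmb9 is also induced by interferon. Below that limit on FPKM, Phlda1 stood at 1.26 (1.06 to 1.51). At the other end, the membrane rupture protein gene Ninj1 and the chemokine gene Cxcl16 stood at 0.932 (0.906 to 0.959) and 0.934 (0.875 to 0.997). Below the limit, Ptgs2, the inducible cyclooxygenase, stood lower at 0.817 (0.710 to 0.938), as did the kinase gene Ripk2 at 0.870 (0.806 to 0.938). Targets of the pathway lay on both sides of equality in this list, with more intervals above 1 than below. Of the 10 targets within the 39 genes, the interval lay above 1 for 2 and below 1 for none on the deposited scale.

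**Figure D4:**
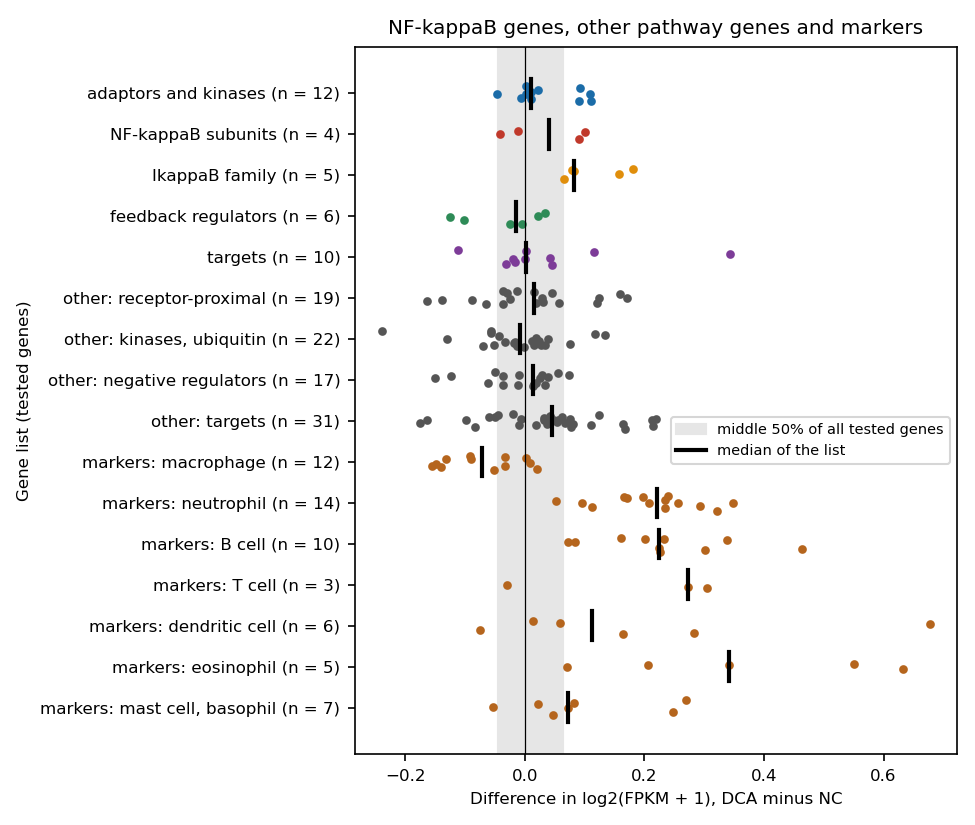
Difference in log2(FPKM + 1), DCA minus NC (x axis), of each tested gene (points) in the 5 roles of the NF-kappaB genes, 4 further pathway lists and 7 lists of cell markers (y axis), with black bars for list medians and grey shading for the middle 50% of all tested genes. The IkappaB family is the only role whose points all lie right of 0, with a median of 0.082, and the neutrophil and B-cell markers lie further right, with medians of 0.22 and 0.23. The medians of the eosinophil and T-cell markers, 0.34 and 0.27 from 5 and 3 counted genes, lie further right still.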

How the data were processed

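Each library was assigned to its group by the treatment label. The authors deposited FPKM per gene. The submitters' processing notes name the build GRCm38 and, without role or order, the tools DESeq2 3.0, HTSeq 0.6.0, bedtools 2.17.0, Picard 1.126 and STAR 2.5.0c. Gene length, strand setting and filters were not given in the sources used here, so reads of overlapping genes cannot be told apart.

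The divisor was inferred from the values: with the summed transcript lengths of GENCODE vM21, which held 15548 of the 15576 identifiers, read totals were found at which the deposited FPKM become whole reads within 0.05 of a read. This held for 14329 genes. A mean FPKM of at least 1 left 9656 genes, 9371 of them with rebuilt reads. Differences in log2(FPKM + 1) and ratios of reads with exact 95% intervals were computed with Python 3.11.15, scipy 1.17.1 and pandas 2.3.3, and tested on simulated data. Exons overlap by position on either strand.

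The members and lists were chosen with earlier results of these data known. All members may be named. Of the further lists, the 2 highest and 2 lowest genes with a mean FPKM of 5 or more and any 1.5-fold apart were named. Of the markers, those at 0 were named, with the 2 most abundant for macrophages, neutrophils and B cells and the most abundant for T cells. Tested here means a mean FPKM of 1 or more, with no p-value. Overlapping genes and the list genes with a mean FPKM below 5 were named after their values were seen. So were Cd3e, Cd2, Lck, Cd4 and Cd8a, and the dendritic-cell markers given above.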

Additional observations from a re-analysis of the deposited data

How the results depend on the processing

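No paired analysis was possible because each group holds 1 library, and for the same reason no replicate could be left out. The median difference of the counted members lay between 0.0040 and 0.022 across the alternatives, which were pseudocounts of 0.1 and 5, no filter, a mean FPKM of at least 5, both rescalings, leaving out members with overlapping exons, and, chosen after seeing the data, FPKM per merged exon length and leaving out the Bcl2a1 copies. No member was 1.5-fold apart in any of them. With pseudocount 5, 1 member was at least 1.1-fold higher, in place of 3. With pseudocount 0.1, 2 members were at least 1.1-fold lower in place of 0, with each library rescaled to the same sum 2, and with FPKM per merged exon length 1. After the same rescaling 5 members had an interval below 1 in place of 2, while 11 had one above 1 in place of 12. Rescaling turned the sign of 6 members (Irak1, Irak4, Chuk, Ikbkb, Cd40 and Sod2) and centring on the median gene that of 4, none of them 1.1-fold apart. Members above 0 numbered 25 of 37 as deposited, 21 of 39 rescaled and 21 of 37 centred. The causes were not tested. Depth limits mainly Bcl2a1a, whose interval reached 23.6% of its ratio to either side.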
